A study of Mus musculus with 18 samples.

Results

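The transcription factors that mark cortical excitatory neurons were followed in RNA-seq of the striatum from 18 mice. They are 9 of the 55421 genes counted, namely Tbr1, Fezf2, Neurod1, Neurod2, Neurod6, Emx1, Prdm8, Bhlhe22 and Nfib, and each was found by matching the Ensembl gene ID of its row to its symbol. Of the 9, 8 passed the filter on low counts and were tested, and Emx1 did not. The members were selected on their counts, because some of them had been seen to differ between zQ175 and WT or between zQ175 and zQ175:CK2α’(±). Member values for those comparisons are given as a description without p-values. Nothing is read there from the number of members that pass a threshold. The mice were 5 WT, 5 zQ175, 3 CK2α’(±) and 5 zQ175:CK2α’(±) animals, all aged 12 to 14 months and labelled C57BL/6, with 1 library per mouse. The zQ175 allele is a heterozygous knock-in of an expanded CAG repeat into full-length huntingtin, a model of Huntington’s disease (HD), and it is carried by the zQ175 and zQ175:CK2α’(±) mice. CK2α’(±) mice lack 1 allele of Csnk2a2, the gene of the catalytic kinase subunit CK2α’, and the line came from a 129/SvEv-C57BL/6J background. The zQ175:CK2α’(±) mice carry both changes. No cell type-specific driver is named for either change, and the labels name no sex, litter or sequencing batch for a library. The study's methods give both sexes in every group, with more females in WT and zQ175:CK2α’(±) and more males in zQ175 and CK2α’(±).

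As background, the excitatory neurons of the cortex, hippocampus and claustrum arise in the dorsal telencephalon and use glutamate, while the medium spiny neurons (MSNs) that make up most of the striatum arise ventrally and use GABA. Emx1 marks the dorsal progenitors, and the basic helix-loop-helix (bHLH) factors Neurod1, Neurod2 and Neurod6 drive differentiation of their neurons. Tbr1, a T-box factor, and Fezf2, a zinc finger factor, specify deep-layer projection neurons, whereas Bhlhe22 and Prdm8 act together as a repressor complex in axon targeting. Nfib, a nuclear factor I protein, serves neurons and glia. Cortical neurons send axons into the striatum, but their cell bodies and nuclei lie outside it. In tissue counts, fewer cells of a type and less RNA per cell cannot be told apart.

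The promoters of Tbr1, whose level was higher in 4 of 5 zQ175 mice than in all other genotypes, of Prdm8, which had the largest excess in a single mouse, and of Neurod2, whose level split the mice differently, are shown as 300-base windows from RefSeq on GRCm38.p6, reading 5′ to 3′ from 250 bases before the transcription start to 50 after it. Capitals mark E-boxes, the CANNTG element bound by bHLH proteins such as the NeuroD factors, searched on both strands.
Tbr1, chr2:61804203-61804502 on the plus strand: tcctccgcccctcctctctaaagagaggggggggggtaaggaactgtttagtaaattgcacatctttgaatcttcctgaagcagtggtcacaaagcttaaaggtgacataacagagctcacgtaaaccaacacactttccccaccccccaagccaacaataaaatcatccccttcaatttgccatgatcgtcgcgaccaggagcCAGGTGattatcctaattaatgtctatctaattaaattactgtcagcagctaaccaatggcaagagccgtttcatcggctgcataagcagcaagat
Prdm8, chr5:98180619-98180918 on the plus strand: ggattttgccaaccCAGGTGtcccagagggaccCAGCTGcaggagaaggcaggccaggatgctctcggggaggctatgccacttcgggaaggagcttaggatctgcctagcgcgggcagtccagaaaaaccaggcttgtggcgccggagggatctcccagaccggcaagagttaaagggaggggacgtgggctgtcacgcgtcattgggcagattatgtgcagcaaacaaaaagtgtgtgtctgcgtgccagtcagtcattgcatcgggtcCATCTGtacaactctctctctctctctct
Neurod2, chr11:98329596-98329895 on the minus strand: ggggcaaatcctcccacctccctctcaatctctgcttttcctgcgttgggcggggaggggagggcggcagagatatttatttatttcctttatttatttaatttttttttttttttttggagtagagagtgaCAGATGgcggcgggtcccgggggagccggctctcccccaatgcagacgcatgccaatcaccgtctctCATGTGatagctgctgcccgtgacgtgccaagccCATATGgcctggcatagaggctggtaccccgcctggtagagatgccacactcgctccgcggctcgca
The Tbr1 window held 1 E-box, and the Prdm8 and Neurod2 windows held 3 each. An E-box of any letters occurred in 72.3% of all 32851 promoter windows of this length. The form CAGATG, or its reverse complement CATCTG, was in the Prdm8 and Neurod2 windows and in 17.15% of all windows. CATATG was in the Neurod2 and Neurod1 windows and in 3.91% of all. CAGCTG was in the Prdm8 window and in 16.3% of all. The T-box core AGGTGT, which overlaps an E-box in Prdm8, was in the Neurod1, Neurod6 and Prdm8 windows and in 13.7% of all, and the nuclear factor I core TTGGCA was in the Neurod2, Neurod6 and Prdm8 windows and in 14.1% of all. These matches are letters in a window and not measured binding. Windows were found for 7 of the 9 genes. Bhlhe22 and Nfib had no entry.

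Total counts per library ranged from 13612381 to 22702547. Csnk2a2 fell in CK2α’(±) against WT by 0.92 on the log2 scale (edgeR, adjusted p = 0.000897), and its 8 libraries with a deleted allele lay below the other 10 without overlap, as labelled. Levels are given as CPM, the read count of a gene scaled to library size with edgeR's TMM factors. Striatal identity was present in each library, since Ppp1r1b, the DARPP-32 gene of MSNs, ranged from 278 to 1481 CPM. The zQ175 replicate 5 mouse had the highest level of all 18 mice for 9 of the 9 cortical transcription factors, Emx1 included. It was the highest library for 7.76% of all 20914 genes tested. The zQ175 values took part in choosing the members, so nothing is read from setting these shares side by side. The zQ175 replicate 1 mouse had the highest summed thalamic markers and the lowest summed MSN markers. WT replicates 4 and 5 had the lowest summed MSN markers of the WT mice. Results are therefore given with and without zQ175 replicate 5.

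The levels per length come first. Nfib was the most abundant of the 9, with a mean of 4.70 ± 1.45 RPKM, which is CPM divided by exon length in kilobases (SD, n = 18 mice). Neurod2 followed at 2.57 ± 3.04 RPKM and Neurod6 at 2.08 ± 4.83. Tbr1 averaged 1.05 ± 0.732 RPKM and Fezf2 0.738 ± 0.471. The remaining means were 0.636 ± 1.39 RPKM for Bhlhe22, 0.524 ± 1.36 for Prdm8, 0.418 ± 0.700 for Neurod1 and 0.109 ± 0.127 for Emx1. The ranges of all 8 pairs of neighbours in this order overlapped across the mice. Within a mouse, Nfib exceeded Neurod2 in 16 of 18 and Neurod1 exceeded Emx1 in 15 of 18, whereas Neurod6 exceeded Tbr1 in only 9 and Prdm8 exceeded Neurod1 in only 8. Without zQ175 replicate 5 the mean of Neurod6 was 0.951 ± 0.683 RPKM and that of Prdm8 0.206 ± 0.134 (SD, n = 17), and Prdm8 and Neurod1 changed places.

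**Figure D1:**
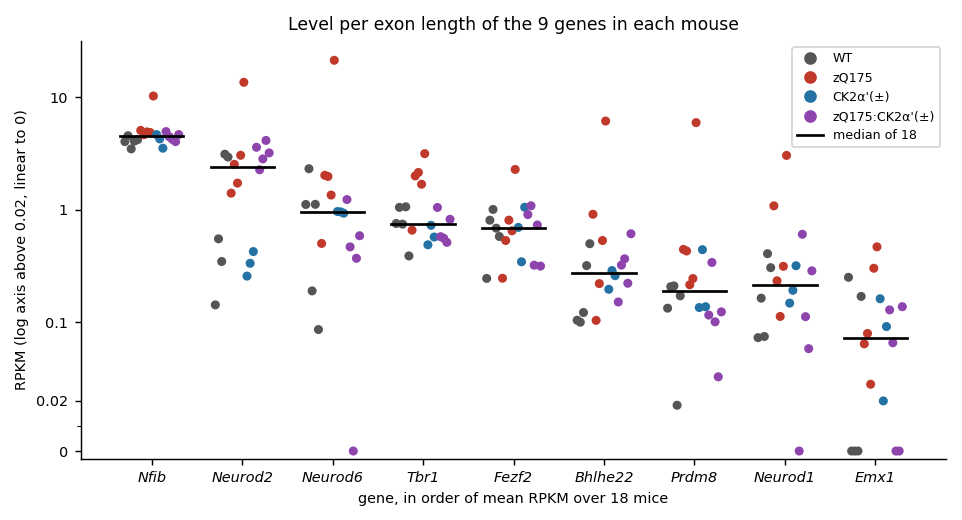
Level per exon length (RPKM, log axis above 0.02 and linear down to 0) of the 9 genes, ordered by mean, with 1 point per mouse coloured by genotype and a black line at the median of 18 mice. Nfib lies between 3.47 and 10.2 RPKM, while Neurod6 ranges from 0 to 21.2 and its highest point is a zQ175 mouse.

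Tbr1 (ENSMUSG00000035033, chr2:61802930-61814114, GRCm38) was measured at 4.14, 5.75, 4.08, 5.82 and 2.13 CPM in WT replicates 1 to 5 and at 3.61, 10.95, 11.7, 9.23 and 17.3 CPM in zQ175 replicates 1 to 5. It was 2.68, 3.98 and 3.14 CPM in the CK2α’(±) mice and 5.74, 3.16, 3.06, 2.81 and 4.51 CPM in the zQ175:CK2α’(±) mice. Of the zQ175 mice, 4 of 5 lay above every mouse of the other genotypes, and replicate 1 lay within the WT range. Group means were 4.38 ± 1.51 (SD, n = 5) CPM in WT, 10.6 ± 4.91 (SD, n = 5) in zQ175, 3.26 ± 0.662 (SD, n = 3) in CK2α’(±) and 3.86 ± 1.24 (SD, n = 5) in zQ175:CK2α’(±). The zQ175 mean was 8.88 ± 3.67 (SD, n = 4) CPM without replicate 5.

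Fezf2 (ENSMUSG00000021743, chr14:12342094-12348189), the deep-layer zinc finger factor, was measured at 0.747, 2.46, 3.06, 2.09 and 1.76 CPM in WT and 0.750, 1.62, 2.46, 1.98 and 6.94 CPM in zQ175. In CK2α’(±) it was 2.12, 1.05 and 3.20 CPM and in zQ175:CK2α’(±) 2.76, 3.30, 0.980, 2.23 and 0.962 CPM. All 4 genotypes overlapped, and zQ175 replicate 5 was the only mouse above 3.30 CPM. Tbr1 and Fezf2 thus gave different pictures in zQ175 replicates 2 to 4, where Tbr1 was above every WT mouse and Fezf2 was within the WT range.

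Prdm8 (ENSMUSG00000035456, chr5:98167198-98188991), a histone methyltransferase-family repressor, was scarce outside 1 mouse. Its CPM was 0.648, 1.01, 1.02, 0.0888 and 0.834 in WT and 2.16, 2.09, 1.05, 1.19 and 28.8 in zQ175. In CK2α’(±) it was 0.657, 2.14 and 0.667 and in zQ175:CK2α’(±) 0.563, 1.65, 0.490, 0.159 and 0.601. Every zQ175 value was above every WT value, although replicates 1 to 4 lay between 1.05 and 2.16 CPM, and the CK2α’(±) and zQ175:CK2α’(±) ranges overlapped with the zQ175 range. The raw counts were 13, 18, 15, 2 and 18 in WT and 46, 36, 17, 18 and 536 in zQ175, so 4 of the 5 zQ175 values and all WT values rest on few reads. The level in zQ175 replicate 5 was 34.6 times the median of the other 17 mice. Prdm8 shares 1411 exon bases with an antisense gene, A730035I17Rik, whose mean count was 1.94, and reads there cannot be assigned with certainty because the strand setting of the counting is not given in the sources used here.

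Bhlhe22 (ENSMUSG00000025128, chr3:18054174-18057517), the bHLH partner of Prdm8, had 0.349, 0.335, 0.408, 1.07 and 1.67 CPM in WT and 3.05, 0.348, 0.738, 1.78 and 20.5 in zQ175. It had 0.657, 0.963 and 0.868 CPM in CK2α’(±) and 0.507, 1.08, 1.22, 0.743 and 2.04 in zQ175:CK2α’(±). WT replicates 4 and 5 lay above WT replicates 1 to 3, and the zQ175 mice spread from within the low WT values to 23.6 times the median of the other 17 mice in replicate 5. For both partners the zQ175 mean changed severalfold with a single mouse. It was 7.06 ± 12.2 (SD, n = 5) CPM for Prdm8 and 1.62 ± 0.584 (SD, n = 4) without replicate 5. For Bhlhe22 it was 5.28 ± 8.57 (SD, n = 5) CPM and 1.48 ± 1.21 (SD, n = 4) without it.

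Among the NeuroD factors, Neurod6 (ENSMUSG00000037984, chr6:55677822-55681263) had 2.39, 4.97, 0.408, 2.40 and 0.185 CPM in WT and 1.08, 4.35, 4.24, 2.90 and 45.7 in zQ175. It had 2.07, 2.06 and 2.002 CPM in CK2α’(±) and 2.65, 1.005, 0, 0.796 and 1.26 in zQ175:CK2α’(±). The zQ175 replicate 5 value was 22.2 times the median of the other mice, whereas zQ175 replicates 1 to 4 lay inside the WT range. The 3 CK2α’(±) mice were nearly equal, and 1 zQ175:CK2α’(±) mouse had no read, which at 3 counts allows up to 0.184 CPM.

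Neurod1 (ENSMUSG00000034701, chr2:79452521-79456751), a factor of newly formed granule and cortical neurons, had 0.199, 0.447, 0.204, 1.11 and 0.834 CPM in WT and 2.95, 0.637, 0.307, 0.857 and 8.28 in zQ175. It had 0.404, 0.525 and 0.868 CPM in CK2α’(±) and 0, 1.65, 0.306, 0.159 and 0.781 in zQ175:CK2α’(±), where the count of 0 in replicate 1 allows up to 0.169 CPM. Both zQ175 replicates 5 and 1 were above all other mice, and zQ175 replicates 2 to 4 were within the WT range. Neurod1 shares 201 exon bases with Cerkl on the same strand, so its low counts are uncertain.

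Neurod2 (ENSMUSG00000038255, chr11:98325415-98329648) separated the mice in another way. It had 0.448, 1.73, 1.09, 9.77 and 9.22 CPM in WT and 4.41, 7.94, 5.41, 9.56 and 42.5 in zQ175. It had 0.808, 1.05 and 1.33 CPM in CK2α’(±) and 11.3, 7.11, 8.88, 12.95 and 10.04 in zQ175:CK2α’(±). WT replicates 1 to 3 and all CK2α’(±) mice were below 2 CPM, and WT replicates 4 and 5, all zQ175 mice and all zQ175:CK2α’(±) mice were above 4. The WT group thus held both levels, and its mean was 4.45 ± 4.63 (SD, n = 5) CPM, with an SD larger than the mean.

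Emx1 (ENSMUSG00000033726, chr6:85187438-85204462), the progenitor marker, had counts of 11, 0, 0, 0 and 8 in WT and 3, 3, 1, 10 and 19 in zQ175. They were 7, 1 and 3 in CK2α’(±) and 5, 2, 0, 0 and 5 in zQ175:CK2α’(±). A count of 0 in 5 libraries allows up to 0.133 to 0.204 CPM, and Emx1 was not tested. Intervals of this kind cover counting error only.

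Nfib (ENSMUSG00000008575, chr4:82290173-82705750), the one abundant member, had 60.2, 67.9, 51.9, 60.9 and 62.6 CPM in WT and 75.6, 69.3, 73.4, 72.5 and 153 in zQ175. It had 69.5, 63.6 and 52.6 CPM in CK2α’(±) and 73.9, 66.5, 63.01, 60.2 and 69.5 in zQ175:CK2α’(±). Every zQ175 mouse was above every WT mouse, also without replicate 5, and the CK2α’(±) and zQ175:CK2α’(±) mice overlapped with both. The zQ175 mean was 88.7 ± 35.9 (SD, n = 5) CPM and 72.7 ± 2.63 (SD, n = 4) without replicate 5, against 60.7 ± 5.77 (SD, n = 5) in WT.

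**Figure D2:**
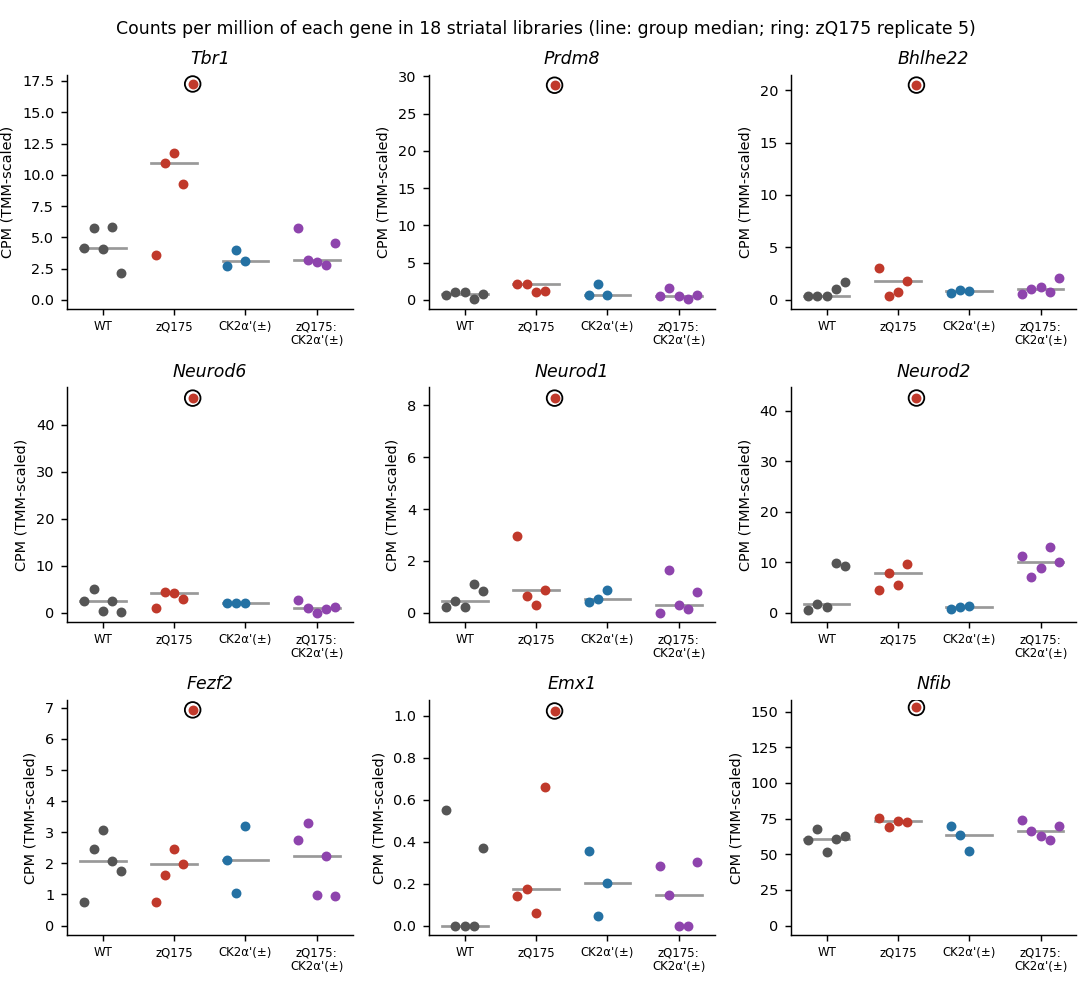
CPM of the 9 genes (linear axes) in each of the 18 mice by genotype, with 1 point per mouse in replicate order, a grey line at the group median and a ring around zQ175 replicate 5. The ringed mouse is the highest in each panel, at 28.8 CPM for Prdm8 and 17.3 for Tbr1, and Neurod2 shows a low and a high set of WT mice.

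Correlations among the 8 tested members differed with and without zQ175 replicate 5. Over 18 mice, all 28 pairs of members had a positive Pearson r on log2 CPM, with a median of 0.45 and a range from 0.15 to 0.81. Over the 17 mice without zQ175 replicate 5, 18 of 28 were positive, with a median of 0.12 and a range from -0.37 to 0.66. The points share the genotype groups, so these values are a description. In the mean z-score of the 8 members, zQ175 replicate 5 stood at 2.65 and held 75.1% of the summed squares, and the other 17 mice lay between -0.78 and 0.42. Pairs over 0.5 numbered 13 in 18 mice and 2 in 17. The pairs over 0.5 in 17 mice were Tbr1 with Neurod6 (r = 0.66, Spearman rho = 0.80) and Neurod1 with Bhlhe22 (r = 0.66, rho = 0.61). Prdm8 and its partner Bhlhe22 had r = 0.64 over 18 mice and 0.066 over 17. The closest member was the same over 18 and over 17 mice for Tbr1 and Neurod6 (each other), Neurod1 and Bhlhe22 (each other), Neurod2 (Bhlhe22, r = 0.61 and 0.44) and Fezf2 (Neurod6, r = 0.48 and 0.20). Prdm8 and Nfib were closest to each other over 18 mice (r = 0.79), and over 17 to Neurod1 (r = 0.34) and Tbr1 (r = 0.44).

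The tested genes most like the mean of the members over 18 mice were Ppfia2 (r = 0.91), Epha7 (r = 0.89), Dgkg (r = 0.88), Pcdh1 (r = 0.86) and Nptx1 (r = 0.86). Nptx1, a neuronal pentraxin of excitatory synapses, was at 144 CPM in zQ175 replicate 5 against a median of 24.3 in the other mice. Epha7, an ephrin receptor, was at 134 against 66.8 CPM. Over 17 mice the genes most like the mean were E2f2 (r = 0.85), Hk2 (r = 0.84), Brca1 (r = 0.84), Rbm15 (r = 0.81) and Mdn1 (r = 0.81), and none of these 5 is among the first 5. Brca1, a DNA repair gene, had a median of 4.66 and a maximum of 6.89 CPM in those 17 mice.

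In zQ175 against WT, the comparison that asks what the HD allele does, the 8 tested members had log2 fold changes above 0, with a median of 1.91 beside 0.0042 over all genes tested, and 2 of 8, Prdm8 and Tbr1, passed an FDR of 0.1. Over all genes, 1.1% passed in either direction and 0.387% passed as higher. These values took part in choosing the members, so nothing is read from that count. The log2 fold change (± SE) was 3.31 ± 0.85 for Prdm8 and 1.27 ± 0.32 for Tbr1. It was 2.75 ± 0.79 for Bhlhe22, 2.49 ± 0.86 for Neurod6, 2.19 ± 0.83 for Neurod1, 1.63 ± 0.63 for Neurod2, 0.55 ± 0.17 for Nfib and 0.45 ± 0.50 for Fezf2. DESeq2 put 3 of the members, Tbr1, Bhlhe22 and Nfib, under an FDR of 0.1 and gave Prdm8 no adjusted p, beside 5.15% of the genes it tested. The groups did not overlap for Prdm8 and Nfib, beside 1.26% of all genes tested. With the level of Xist as a covariate, which stands in for sex, 0 of 8 members passed, beside 0.77% of all genes. The log2 fold change was then 1.26 ± 0.33 for Tbr1 and 2.70 ± 0.91 for Prdm8.

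Without zQ175 replicate 5, 0 of 8 members passed by edgeR, but so did 0 of all 20814 genes then tested (0%), so that count says nothing particular to the members. The median log2 fold change of the members was 0.76, against 1.91 with that mouse. Prdm8 then stood at 1.18 ± 0.60, Bhlhe22 at 0.93 ± 0.59 and Neurod6 at 0.59 ± 0.71. Neurod1 stood at 1.07 ± 0.81, Neurod2 at 0.59 ± 0.55 and Nfib at 0.26 ± 0.091. Fezf2 turned to -0.25 ± 0.46. Tbr1 kept most of its size, at 1.01 ± 0.32, though it did not pass. Leaving out 1 mouse at a time gave between 0 and 2 members passing, and the 0 arose also without WT replicate 1, 3 or 5, CK2α’(±) replicate 2, or zQ175:CK2α’(±) replicate 3 or 5. Over all genes tested, 0% passed without WT replicate 3, 0.048% without WT replicate 1 and 0.696% to 1.01% in the other 4 of these settings. Without both zQ175 replicates 1 and 5, a setting added after the values were seen, Tbr1 stood at 1.28 ± 0.28, Prdm8 at 1.01 ± 0.66, Bhlhe22 at 0.29 ± 0.63 and Neurod1 at 0.082 ± 0.88.

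In zQ175 against zQ175:CK2α’(±), which asks how the HD mice differ when 1 Csnk2a2 allele is removed, the 8 members again had log2 fold changes above 0, with a median of 1.83, and 0 of 8 passed by edgeR, beside 0.0143% of all genes. By DESeq2 1 of 8, Tbr1, passed, beside 0.146%. At an unadjusted p under 0.05 there were 6 of 8 by edgeR, beside 1312 of all 20914 genes. Here too the values chose the members and nothing is read from the counts. This comparison shares the zQ175 mice with the previous one. The log2 fold change was 1.45 ± 0.33 for Tbr1, 3.38 ± 0.86 for Prdm8, 3.34 ± 0.91 for Neurod6, 2.24 ± 0.77 for Bhlhe22 and 2.21 ± 0.84 for Neurod1. It was 0.47 ± 0.61 for Neurod2, 0.43 ± 0.50 for Fezf2 and 0.41 ± 0.17 for Nfib. Without zQ175 replicate 5 the median was 0.74, Tbr1 stood at 1.19 ± 0.32, Neurod6 at 1.44 ± 0.73 and Prdm8 at 1.24 ± 0.61. Bhlhe22 then stood at 0.41 ± 0.59, Neurod1 at 1.07 ± 0.82 and Nfib at 0.12 ± 0.091. Neurod2 turned to -0.57 ± 0.54 and Fezf2 to -0.27 ± 0.46.

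**Figure D3:**
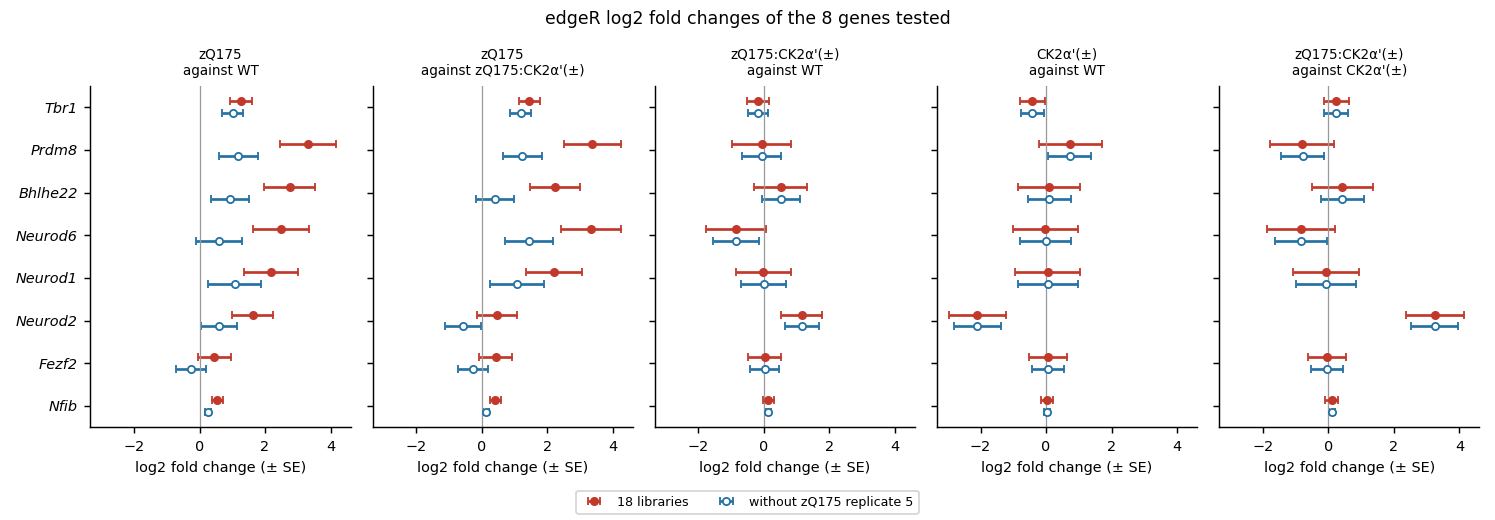
Log2 fold changes from edgeR (x axis, ± SE) of the 8 tested genes in 5 comparisons, with filled red points for all 18 libraries and open blue points without zQ175 replicate 5. In zQ175 against WT Prdm8 moves from 3.31 to 1.18, Tbr1 moves from 1.27 to 1.01, and Neurod2 stands apart in the panels with CK2α’(±).

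The remaining pairwise comparisons were tested. They share the WT or zQ175:CK2α’(±) mice with the comparisons that chose the members, so they are not independent of that choice, and the CK2α’(±) mice had no part in it. In zQ175:CK2α’(±) against WT, 0 of 8 members passed by edgeR, beside 0.0143% of all genes, and 0 by DESeq2, beside 0.722%. At an unadjusted p under 0.05 there were 0 of 8 by edgeR, beside 1909 of all 20914 genes. The log2 fold changes ran from -0.85 ± 0.91 for Neurod6 to 1.15 ± 0.63 for Neurod2 (edgeR, adjusted p = 0.851 and 0.607), with a median of 0.00064. Tbr1, at -0.18 ± 0.33 (edgeR, adjusted p = 0.926), and Nfib, at 0.13 ± 0.17 (edgeR, adjusted p = 0.877), did not pass. Prdm8 stood at -0.067 ± 0.90 and Bhlhe22 at 0.51 ± 0.80.

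In CK2α’(±) against WT, 0 of 8 members passed by edgeR, beside 0.0143% of all genes, and 0 by DESeq2, beside 0.0293%. An unadjusted p under 0.05 was found for 1 of 8 by edgeR, beside 937 of all 20914 genes. That 1 was Neurod2, at -2.10 ± 0.87 (edgeR, adjusted p = 0.999). The other log2 fold changes lay between -0.42 for Tbr1 and 0.73 for Prdm8, and the median was 0.040. WT replicates 1 to 3 overlapped with the CK2α’(±) mice in Neurod2, and WT replicates 4 and 5 lay above all of them.

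In zQ175:CK2α’(±) against CK2α’(±), 0 of 8 members passed by edgeR, beside 0.593% of all genes. At an unadjusted p under 0.05 there was 1 of 8 by edgeR, Neurod2, beside 1921 of all 20914 genes. DESeq2 passed 1 of 8, also Neurod2, beside 1.63% of the genes it tested. Neurod2 was 10.05 ± 2.23 (SD, n = 5) CPM in zQ175:CK2α’(±) and 1.06 ± 0.264 (SD, n = 3) in CK2α’(±), a log2 fold change of 3.25 ± 0.89 (edgeR, adjusted p = 0.145; DESeq2, adjusted p = 0.0277). The 2 groups did not overlap, beside 3.86% of all genes that were higher without overlap. Across the alternatives the adjusted p ran from 5.24e-05 to 0.431, and the log2 fold change kept its sign throughout, between 2.68 and 3.42. The edgeR adjusted p without zQ175 replicate 5 was 0.0743. The next largest differences, -0.83 ± 1.03 for Neurod6 and -0.80 ± 0.97 for Prdm8, did not pass (edgeR, adjusted p = 0.883 and 0.881).

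Some other genes of the lists were also low in WT replicates 1 to 3 and the CK2α’(±) mice. They were singled out after their values were seen, and no p is given for them. Not every listed gene of cortical neurons shared this. In WT replicates 1 to 5, Lamp5 was at 36.8, 38.4, 30.3, 37.5 and 38.1 CPM. Rspo1 was at 6.28, 7.82, 5.92, 3.42 and 1.20 CPM in the same mice. Prdm12, a relative of Prdm8, had 0.149, 0.112, 0, 2.18 and 1.67 CPM in WT and 0.202, 0.219 and 0 in CK2α’(±), against 3.49, 3.01, 2.45, 5.20 and 1.44 in zQ175:CK2α’(±). Emx2, the relative of Emx1, had 7.18, 7.32, 4.29, 10.97 and 12.97 CPM in WT and 5.000, 5.91 and 6.27 in CK2α’(±), against 9.85, 14.6, 11.3, 15.9 and 11.2 in zQ175:CK2α’(±). For both, WT replicates 4 and 5 were above WT replicates 1 to 3 and every CK2α’(±) mouse. Rprm, a gene of deep-layer cortical neurons, had 2.99, 2.40, 1.29, 10.8 and 6.12 CPM in WT and 2.27, 1.09 and 1.94 in CK2α’(±), against 5.29, 6.10, 5.27, 8.07 and 8.17 in zQ175:CK2α’(±). Nrn1, the neuritin gene, had 6.43, 5.19, 18.7, 37.4 and 40.7 CPM in WT and 15.6, 19.7 and 2.07 in CK2α’(±), against 26.3, 35.2, 32.3, 40.4 and 43.3 in zQ175:CK2α’(±). In these genes, too, WT replicates 4 and 5 lay above WT replicates 1 to 3 and every CK2α’(±) mouse. Ppp1r1b went the other way, at 1076, 1248, 1019, 639 and 719 CPM in WT, 884, 907 and 1481 in CK2α’(±) and 740.2, 709, 596, 809.9 and 532 in zQ175:CK2α’(±). In the zQ175 mice Rprm was 7.36, 6.66, 7.87, 7.25 and 4.95 CPM and Nrn1 was 64.8, 35.9, 32.8, 35.5 and 82.9, all above WT replicates 1 to 3. The zQ175 mice were not uniformly high in the other genes, at 0.797, 2.61, 0.307, 2.70 and 0.807 CPM for Prdm12 and 5.16, 12.8, 13.8, 13.98 and 14.9 for Emx2, where replicate 1 lay within the range of WT replicates 1 to 3. The part of these levels in the Neurod2 result was not tested.

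**Figure D4:**
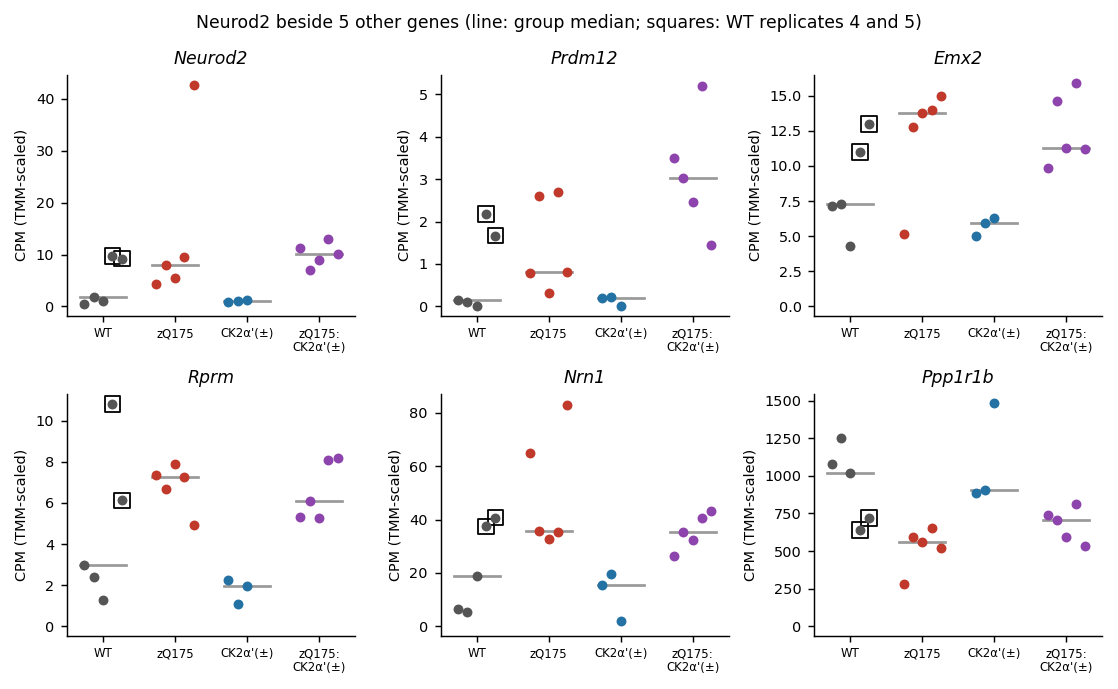
CPM (linear axes) of Neurod2, 4 other list genes and Ppp1r1b in the 18 mice by genotype, with 1 point per mouse in replicate order, grey lines at group medians and squares around WT replicates 4 and 5. The squared mice are at 9.77 and 9.22 CPM of Neurod2, near the zQ175:CK2α’(±) mice, while the other WT mice are at 1.73 or less.

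The interaction, which compares the effect of removing a Csnk2a2 allele with and without the HD allele, passed for 0 of 8 members by edgeR, beside 0.00478% of all genes, and for 0 by DESeq2, beside 0.0747%. At an unadjusted p under 0.05 there were 2 of 8 by edgeR, Prdm8 and Neurod6, beside 1127 of all 20914 genes. It shares the zQ175 and WT mice with the comparisons that chose the members, so it is given as a description. It was -4.11 ± 1.27 on the log2 scale for Prdm8, -3.31 ± 1.32 for Neurod6, -1.03 ± 0.50 for Tbr1 and 1.62 ± 1.05 for Neurod2. Without zQ175 replicate 5 it was -1.96 ± 0.89 for Prdm8, -1.42 ± 1.07 for Neurod6, -0.77 ± 0.48 for Tbr1 and 2.66 ± 0.89 for Neurod2.

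Other transcription factors of cortical excitatory neurons were counted as a list of 24, of which 23 were tested. Of the 24, 7 were highest in zQ175 replicate 5. This list and those below were chosen with earlier results of these data known. Their values and p-values in zQ175 against WT and in zQ175 against zQ175:CK2α’(±) are therefore a description. In zQ175 against WT 1 of 23, Nr4a2, rose, none fell, and 21 of 23 had a log2 fold change above 0 with a median of 0.26, while 1.1% of all genes passed. Without zQ175 replicate 1 the median was 0.12 and 16 of 23 were above 0, and without replicate 5 the median was 0.22. None of the 23 passed when any 1 of zQ175 replicates 1 to 5 was left out. Over all genes, 0.37%, 0.981%, 0.639%, 1.14% and 0% passed without replicates 1 to 5 in turn. Nr4a2, an orphan nuclear receptor of the claustrum and deep layers, was 6.33, 5.70, 2.31, 9.06 and 2.64 CPM in WT and 11.7, 9.97, 13.4, 14.4 and 14.2 in zQ175. It was 2.78, 3.37 and 2.80 CPM in CK2α’(±) and 2.76, 4.52, 1.22, 1.27 and 3.91 in zQ175:CK2α’(±). All zQ175 mice were above all other mice, and replicate 5 was not the highest of them. The log2 fold change was 1.28 ± 0.34 against WT and 2.23 ± 0.36 against zQ175:CK2α’(±) (edgeR, adjusted p = 0.0990 and 0.0338), where it was the 1 gene of 23 that passed. Nr4a2 without zQ175 replicate 5 stood at 1.24 ± 0.36 and 2.18 ± 0.38 (edgeR, adjusted p = 0.169 and 0.113). At the ends of the list, Eomes was at 1.24 ± 0.92, Pou3f1 at -0.36 ± 0.20 and Pax6 at -0.080 ± 0.25. In zQ175:CK2α’(±) against WT, CK2α’(±) against WT and zQ175:CK2α’(±) against CK2α’(±), 0 of 23 passed by edgeR. The medians were 0.036, 0.0052 and -0.0057. DESeq2 passed 0, 0 and 2 in these, beside 0.722%, 0.0293% and 1.63% of the genes it tested. It passed 2 in zQ175 against WT, beside 5.15%, and 1 in zQ175 against zQ175:CK2α’(±), beside 0.146%.

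The 16 family paralogs of the members had 9 tested genes, none of which passed in any comparison by edgeR. Their median log2 fold change in zQ175 against WT was 0.084, from -0.46 ± 0.15 for Olig2 and -0.26 ± 0.25 for Prdm16 to 0.76 ± 0.75 for Prdm12 and 1.24 ± 0.92 for Eomes. Of 11 textbook partners and targets, such as Tcf4, a general bHLH partner, and Reln, a target of Tbr1, 0 passed in any comparison. Their median in zQ175 against WT was 0.13 (0.035 without zQ175 replicate 5 and 0.20 without replicate 1), with Auts2 at 0.47 ± 0.50 among the highest and Bcl11b at -0.23 ± 0.19 and Tcf3 at -0.14 ± 0.13 lowest. By DESeq2, 1 paralog and 0 partners passed in zQ175 against WT, beside 5.15% of the genes it tested. DESeq2 passed 2 paralogs and 0 partners in zQ175:CK2α’(±) against CK2α’(±), beside 1.63%.

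Markers of other cells and regions were summed per library. The 14 effector genes of cortical excitatory neurons summed to 298 to 401 CPM in WT, 405 to 785 in zQ175, 300.2 to 347 in CK2α’(±) and 358 to 421 in zQ175:CK2α’(±), and none was at 0 in all libraries. The zQ175 mice were all above the WT mice, but narrowly, with zQ175 replicate 2 at 405 CPM and WT replicate 4 at 401. Sv2b alone was at 100 to 204 CPM across the mice. The sum was highest in zQ175 replicate 5, where 6 of the 14 genes were highest and Deptor was lowest, at 20.9 CPM. In zQ175 against WT, 9 of 14 genes had a log2 fold change above 0. The list's median was 0.34, and 0.20 without replicate 5. Slc17a7, the vesicular glutamate transporter of cortex and hippocampus, was 11.9, 31.6, 27.98, 32.2 and 31.1 CPM in WT and 66.8, 29.1, 62.5, 50.4 and 202 in zQ175. Slc30a3, the synaptic zinc transporter, was 0.698, 0.503, 0.545, 0.0444 and 0.556 CPM in WT and 1.45, 1.45, 0.861, 1.32 and 10.4 in zQ175. Each was highest in zQ175 replicate 5. By edgeR 0 of the 14 passed in zQ175 against WT, beside 1.1% of all genes. The values were 2.73 ± 0.82 for Slc30a3, 1.61 ± 0.49 for Slc17a7, -0.22 ± 0.18 for Lamp5 and -1.25 ± 0.50 for Rspo1. DESeq2 passed 2 of the 14, beside 5.15% of the genes it tested. Without zQ175 replicate 5, Slc30a3 stood at 1.43 ± 0.78 and Slc17a7 at 0.95 ± 0.43. The other comparisons had 0 of 14 by edgeR. By DESeq2 there were 3 in zQ175:CK2α’(±) against CK2α’(±), beside 1.63% of the genes it tested. In zQ175 against zQ175:CK2α’(±) there were 2, beside 0.146%.

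The 7 hippocampal neuron markers summed to 407 to 563 CPM in WT, 443 to 830.0 in zQ175, 372 to 535 in CK2α’(±) and 500.3 to 657 in zQ175:CK2α’(±), and 7 of 7 were highest in zQ175 replicate 5. Lct, which was at or below 0.174 CPM in the other 17 mice, was at 9.57 there. C1ql2, a dentate granule cell gene, was 2.53, 0.521, 1.17, 1.06 and 10.3 CPM in zQ175 replicates 1 to 5 and 0.249, 0.391, 0.204, 0.311 and 0.788 in WT, and it was the 1 of 6 tested markers that rose in zQ175 against WT (2.97 ± 0.66, edgeR, adjusted p = 0.0588), with 0 of 6, and 0 of all 20814 genes, without replicate 5. Spink8 stood at 1.28 ± 0.73, Fibcd1 at 0.37 ± 0.41 and Zbtb20 at 0.26 ± 0.14. Without replicate 5, C1ql2 stood at 1.73 ± 0.52, Spink8 at 0.55 ± 0.75 and Zbtb20 at 0.13 ± 0.13, and Fibcd1 turned to -0.45 ± 0.29. The list's median was 0.30 without that mouse and 0.59 with it. The largest excess of the transcription factors and of the hippocampal markers was therefore in the same mouse, and the part of the one in the other was not tested.

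The 7 thalamic markers summed to 142 to 543 CPM in WT, 138 to 1571 in zQ175, 126 to 833 in CK2α’(±) and 134 to 626 in zQ175:CK2α’(±). Here zQ175 replicate 1 was highest and replicate 5 lowest of the zQ175 mice, and 0 of 7 passed by edgeR in any comparison. Their median log2 fold change was 0.64 in zQ175 against WT and 1.002 in zQ175 against zQ175:CK2α’(±). These values rested on zQ175 replicate 1, whose thalamic sum was 1571 CPM beside 138 to 550.1 in the other zQ175 mice, and without it, a setting added after the values were seen, the medians were -0.093 and 0.14. Slc17a6 in zQ175 against WT stood at 1.35 ± 0.89, Tcf7l2 at 1.18 ± 0.64, Rora at 0.50 ± 0.39 and Tnnt1 at -0.18 ± 0.80. Without replicate 1, Slc17a6 turned to -0.14 ± 0.81, Tcf7l2 to -0.040 ± 0.52 and Rora to -0.093 ± 0.32, and Tnnt1 stood at -0.92 ± 0.83. The 5 claustrum markers summed to 71.9 to 136 CPM in WT and 73.4 to 126 in zQ175, and 1 of 5, again Nr4a2, passed, with Ntng2 at 0.33 ± 0.20, Gnb4 at 0.10 ± 0.15 and Synpr at -0.20 ± 0.21. Of 7 genes of immature neurons and progenitors, 1, Sox11, rose in zQ175 against WT (0.47 ± 0.12, edgeR, adjusted p = 0.0838) and in zQ175:CK2α’(±) against CK2α’(±) (0.68 ± 0.14, edgeR, adjusted p = 0.0574). The zQ175 against WT count was 0 for both lists without zQ175 replicate 5, and 0 for all 20814 genes. It was 0 for both also without zQ175 replicate 1, 2 or 3, where 0.37%, 0.981% and 0.639% of all genes passed. Without replicate 4 it was 0 for the claustrum list and 1 for the immature list, beside 1.14% of all genes. Top2a, at -1.13 ± 0.46, Mki67, at -0.35 ± 0.54, and Eomes did not pass.

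The 9 MSN markers summed to 2678 to 6411 CPM in WT, 1460.4 to 2926 in zQ175, 4529 to 6432 in CK2α’(±) and 2405 to 3429.9 in zQ175:CK2α’(±). Of these, 3 of 9 fell and none rose in zQ175 against WT, among them Adora2a (-1.12 ± 0.25) and Penk (-1.002 ± 0.23), beside 1.1% of all genes that passed in either direction. Adora2a was at 134, 174 and 120 CPM in WT replicates 1 to 3. It was at 48.9 and 62.0 CPM in WT replicates 4 and 5, beside 33.2 to 57.4 in zQ175. In zQ175:CK2α’(±) against CK2α’(±) 2 of 9 fell, beside 0.593%. Tac1 stood at -0.27 ± 0.16, and Drd2 was at 76.8 CPM in zQ175 and 117 in WT (medians of 5 mice). Of 11 MSN transcription factors 0 passed, from -0.46 ± 0.24 for Rxrg and -0.34 ± 0.16 for Meis2 to 0.042 ± 0.19 for Ikzf1 and 0.18 ± 0.13 for Foxp2. None of the 9 MSN markers passed in zQ175 against WT without replicate 5, as none of all 20814 genes did, and the list's median was -0.65 beside -0.66 with it. Without zQ175 replicate 1 none of the 9 passed either, beside 0.37% of all genes, and the median was -0.54. By DESeq2 4 of the 9 passed in zQ175 against WT, beside 5.15% of the genes it tested, and 2 in zQ175:CK2α’(±) against CK2α’(±), beside 1.63%.

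Of the glial and vascular lists, 1 held called genes by edgeR. Of 5 oligodendrocyte genes 2 fell in zQ175 against WT, among them Mbp (-0.58 ± 0.12), beside 1.1% of all genes, with Mog at -0.20 ± 0.12 and Sox10 at -0.24 ± 0.14, and 0 of 5 passed without zQ175 replicate 5, as 0 of all 20814 genes did. None of 6 astrocyte genes passed, from -0.26 ± 0.092 for Aldoc and -0.21 ± 0.11 for Aldh1l1 to -0.11 ± 0.18 for Aqp4 and -0.076 ± 0.10 for Slc1a2, the glutamate transporter GLT-1. None of 5 microglial genes passed, with values from -0.27 ± 0.089 for Csf1r and -0.22 ± 0.11 for Cx3cr1 to -0.15 ± 0.13 for P2ry12 among the genes named. None of 4 endothelial genes passed, from -0.50 ± 0.25 for Cldn5 and -0.092 ± 0.22 for Slco1a4 to -0.079 ± 0.19 for Pecam1 and 0.26 ± 0.11 for Flt1. Of 6 choroid plexus genes none passed, from -7.24 ± 2.32 for Ttr and -4.86 ± 1.93 for Kcnj13 to -2.40 ± 1.16 for Kl and -0.94 ± 0.54 for Clic6. Values near 0 turned sign when 1 mouse was left out for Slc1a2, Slco1a4 and Pecam1, as they did for Pax6, Gnb4, Ikzf1 and Tnnt1 of the earlier lists. In zQ175 against WT, DESeq2 passed 1 choroid plexus and 2 oligodendrocyte genes, beside 5.15% of the genes it tested. It passed 1 choroid plexus gene in zQ175 against zQ175:CK2α’(±), beside 0.146%. In zQ175:CK2α’(±) against CK2α’(±) it passed 1 astrocyte and 1 oligodendrocyte gene, beside 1.63%. Ttr was between 908 and 2904 CPM in WT replicates 1 and 3, CK2α’(±) replicate 1 and zQ175:CK2α’(±) replicate 2 and at most 10.5 in the others.

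**Figure D5:**
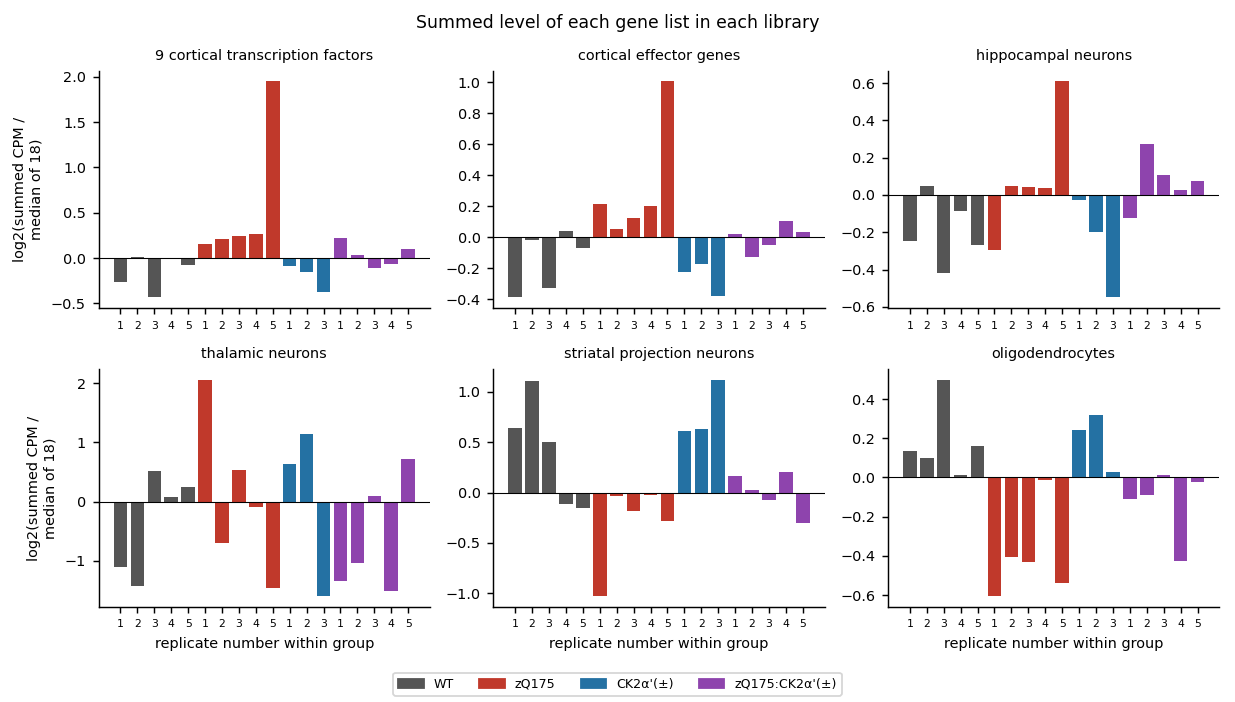
Log2 of the summed CPM of 6 gene lists in each library over the median of the 18 libraries, with 1 bar per mouse coloured by genotype and numbered by replicate. The 9 transcription factors sum to 324 CPM in zQ175 replicate 5 and to 62.2 to 101 in the others, and the hippocampal markers are highest in the same mouse while the thalamic markers are highest in zQ175 replicate 1.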

How the data were processed

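Striatal RNA from 18 mice was sequenced as 1 library per mouse with a Takara stranded total RNA kit. Per the labels and the study's methods, the authors trimmed reads with Trimmomatic, aligned them with HISAT2 2.1.0 to GRCm38, removed duplicate, unmapped and low-quality alignments and counted genes with Subread 1.6.2, and they deposited raw read counts and gene lengths. The strand setting of the counting is not given in the sources used here. Total counts were 13612381 to 22702547, and precision for scarce genes is limited by their few reads.

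Groups came from the sample titles. Counts were filtered with filterByExpr (20914 genes kept), scaled by TMM and tested with edgeR 4.0.16 (quasi-likelihood, R 4.3.3) in 1 fit of 18 libraries, with Benjamini-Hochberg adjustment over all genes and an FDR of 0.1. Log2 CPM used a prior count of 2, RPKM used the deposited gene lengths, and a count of 0 was bounded at 3 counts. The test was tested on simulated data. DESeq2 1.42.0, other scaling, filters, fits, an FDR of 0.05, Xist level as a covariate, a replicate block and leaving out each mouse were alternatives. Leaving out zQ175 replicates 1 and 5 together, and the list values without 1 mouse at a time, were added after seeing the data.

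The members and lists (other cortical transcription factors, paralogs, partners and targets, and markers of cortical, hippocampal, thalamic, claustral, immature and striatal neurons, glia, endothelium and choroid plexus) were chosen with earlier results of these data known. Named genes were all members, the 2 highest and 2 lowest genes of each list in zQ175 against WT, 8 fixed markers, the 5 genes most like the members' mean and each member's closest member. Some genes under this rule are not reported here. Nothing states that mice of a group came from separate litters, so p-values measure the spread between these mice.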

Additional observations from a re-analysis of the deposited data

Results flagged for a closer look

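Of 27 pairs of a member and a group of 5 mice, 6 held a mouse whose gap to the next value exceeded Dixon's critical value of 0.71 of the group's range, and all 6 were zQ175 replicate 5. Chance flags about 1 pair in 20. The 6 come from a single library and are not separate events, and the zQ175 values took part in choosing the members. They are therefore not weighed against that rate. The values were 42.5 CPM for Neurod2 (gap of 0.865 of the range), 45.7 CPM for Neurod6 (0.927), 6.94 CPM for Fezf2 (0.724), 28.8 CPM for Prdm8 (0.960), 20.5 CPM for Bhlhe22 (0.866) and 153 CPM for Nfib (0.924). The same mouse had the highest summed hippocampal and cortical effector markers of the 18 mice. It was the highest mouse for 7 of 7 hippocampal and 6 of 14 cortical effector genes. The part of those markers in these values was not tested. The CK2α’(±) group of 3 mice was not examined in this way.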

How the results depend on the processing

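In CK2α’(±) against WT, zQ175:CK2α’(±) against WT and the interaction, the number of members called was 0 in every alternative run. In zQ175 against WT, where 2 were called, the number was 6 with no filter on low counts, 1 with a robust fit and 0 with only the groups compared, with Xist level as a covariate, at an FDR of 0.05 or without zQ175 replicates 1 and 5, and it was 0 to 2 when 1 mouse was left out. Over all genes the number called was 0 of 18529 with only the groups compared and 0 of 20688 without zQ175 replicates 1 and 5, and the share called was 1.2% with no filter, 1.5% with the robust fit, 0.77% with Xist and 0.244% at an FDR of 0.05. In zQ175 against zQ175:CK2α’(±), with 0 called, it was 1 by DESeq2 (0.146% of all genes), 3 with no filter (0.136%) and 0 to 1 when 1 mouse was left out (1 without zQ175 replicate 1, 0.0288%). In zQ175:CK2α’(±) against CK2α’(±), with 0 called, it was 1 by DESeq2 (1.63% of all genes), with no filter (0.79%), with only the groups compared (2.43%) and without zQ175 replicates 1 and 5 (1.07%), and 0 to 1 when 1 mouse was left out (1 without zQ175 replicate 1 or 5, 0.985% and 0.673%). The rank by level was shared by 4 of 9 members without gene length and by 7 to 9 when 1 mouse was left out. The cause was not tested.

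With the replicate number as a block, 0 members were called in zQ175 against WT (0.469% of all genes), where Tbr1 stood at 1.22 and Prdm8 at 2.48 against 1.27 and 3.31 without the block, and Neurod2 turned to -0.14 in zQ175 against zQ175:CK2α’(±), Neurod6 to 0.25 in CK2α’(±) against WT and Bhlhe22 to -0.31 in zQ175:CK2α’(±) against CK2α’(±). Same-numbered mice of different groups had deviations correlated at -0.136 to 0.12 (24 pairs, 2 over 0.1), so the numbers were not taken as pairing.

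Other log2 fold changes that changed sign did not pass the test. In zQ175:CK2α’(±) against WT, Neurod1 was 0.025 by DESeq2 and 0.0010 without zQ175 replicates 1 and 5, and with Xist as a covariate Fezf2 was -0.014 and Prdm8 0.023. With Xist as a covariate, Neurod1 was -0.15, Bhlhe22 -0.47 and Nfib -0.080 in CK2α’(±) against WT, and Neurod1 was 0.093 in zQ175:CK2α’(±) against CK2α’(±). Without zQ175 replicates 1 and 5, Neurod2 was -0.40, Fezf2 -0.015 and Bhlhe22 -0.23 in zQ175 against zQ175:CK2α’(±), and Bhlhe22 was 0.14 in the interaction. Leaving out 1 mouse, Fezf2 ran from -0.25 to 0.69 in zQ175 against WT, -0.27 to 0.67 in zQ175 against zQ175:CK2α’(±), -0.35 to 0.40 in CK2α’(±) against WT, -0.38 to 0.37 in zQ175:CK2α’(±) against CK2α’(±), -0.21 to 0.22 in zQ175:CK2α’(±) against WT and -0.83 to 0.21 in the interaction. Neurod1 ran from -0.29 to 0.45, -0.93 to 0.27 and -0.88 to 0.38, and Prdm8 from -0.093 to 1.02, -1.38 to 0.026 and -0.64 to 0.20, in CK2α’(±) against WT, zQ175:CK2α’(±) against CK2α’(±) and zQ175:CK2α’(±) against WT. In CK2α’(±) against WT, Bhlhe22 ran from -0.097 to 0.58, Neurod6 from -0.33 to 0.58 and Nfib from -0.062 to 0.13. Neurod2 ran from -0.57 to 0.70 in zQ175 against zQ175:CK2α’(±).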
